A study of Mus musculus with 22 samples.

Results

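Crystallins were followed in the retina and the retinal pigment epithelium (RPE) of WT and AdipoR1-/- (KO) mice through 9 listed genes, the alpha crystallins Cryaa and Cryab, the beta crystallins Cryba1, Cryba2, Cryba4, Crybb1, Crybb2 and Crybb3, and the gamma crystallin Crygs. The genes were taken by symbol, and all 9 were found among the 53801 genes of the bulk count tables and among the 19324 genes of the single-cell matrix. The mice were C57BL/6J, and the KO mice carried a homozygous knockout of Adipor1, the adiponectin receptor 1 gene. Bulk RNA-Seq covered both tissues at P30, with 4 libraries in each of the 4 groups, whereas single-cell RNA-Seq of the retina had a WT and a KO library at each of P19, P25 and P30, each made from 4 retinae. Before either tissue was taken, the anterior part of the eye was cut away with the lens, and RPE cells were then shaken off the opened eyecup and pelleted. The question put to each gene was whether its reads varied as RNA carried over from the lens would or as the RNA of a retinal cell would.

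Crystallins are the abundant proteins of the lens. The alpha crystallins are small heat shock proteins that hold unfolding proteins in solution, and Cryab is also made outside the lens, in muscle, heart and glia. The beta and gamma crystallins share a fold built from Greek key motifs and are packed into lens fibre cells, where they give the lens its refractive index. Several of them have also been detected in neurons and glia of the retina, so that their transcripts in a retina sample can have more than 1 source.

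The 9 genes lie on 6 chromosomes of the mouse genome (GRCm38), and all are protein coding. Cryaa is on chromosome 17 (chr17:31677807-31681733, plus strand), Cryab on chromosome 9 (chr9:50751325-50756636, plus strand), Cryba1 on chromosome 11 (chr11:77718615-77725283, minus strand), Cryba2 on chromosome 1 (chr1:74889934-74893143, minus strand) and Crygs on chromosome 16 (chr16:22805203-22811577, minus strand). The other 4 lie close together on chromosome 5, as Cryba4 (chr5:112246493-112252518, minus strand), Crybb1 (chr5:112255815-112269585, plus strand), Crybb2 (chr5:113058258-113070117, minus strand) and Crybb3 (chr5:113075839-113081584, minus strand). Cryba4 and Crybb1 are arranged head to head, with start sites 3302 bases apart, and Crybb2 and Crybb3 lie on the same strand with 5721 bases between them. Of the 50-base words in the exons, 13.34% of those of Cryab also occur in Hspb2, a small heat shock gene on the opposite strand that overlaps Cryab by 1030 bases, and 8.37% of those of Cryaa in an antisense gene, whereas none of those of the other 7 occur in another gene. The strand setting of the read counting is not stated in the methods, so that reads of such pairs may have been counted for either gene.

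Promoters of 8 members were found in the RefSeq table of GRCm38.p6, and Cryab had no entry. The motif TGCTGA, part of the sequence bound by the Maf factors of the lens, was found on one strand or the other in the 250 bases before the RefSeq start in 7 of these 8 promoters, compared with 5282 of 32851 promoters of all genes (16.1%), and Crybb2 had none. Its overlap with other motifs was not examined. GAANNTTC, a heat shock element that reads the same on both strands, was found in 0 of the 8 and in 2199 of all promoters (6.69%). The 120 bases before the annotated gene start are shown for the 4 genes of chromosome 5, because these neighbours are set side by side by cell type later in the text, with this motif in capitals (TCAGCA where it lies on the reverse strand). Of the 3 matches of Cryba4, at 182, 135 and 77 bases before the start, the stretch holds the nearest. They are written 5′ to 3′ on the strand of the gene, and come from chr5:112252519-112252638 (minus strand) for Cryba4, chr5:112255695-112255814 (plus strand) for Crybb1, chr5:113070118-113070237 (minus strand) for Crybb2 and chr5:113081585-113081704 (minus strand) for Crybb3.
Cryba4: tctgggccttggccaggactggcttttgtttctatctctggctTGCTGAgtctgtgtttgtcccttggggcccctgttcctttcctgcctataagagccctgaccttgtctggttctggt
Crybb1: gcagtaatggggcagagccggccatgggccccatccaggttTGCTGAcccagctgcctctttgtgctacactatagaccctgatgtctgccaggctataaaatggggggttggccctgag
Crybb2: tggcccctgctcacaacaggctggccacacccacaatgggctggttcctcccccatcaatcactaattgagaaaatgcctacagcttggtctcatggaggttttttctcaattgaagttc
Crybb3: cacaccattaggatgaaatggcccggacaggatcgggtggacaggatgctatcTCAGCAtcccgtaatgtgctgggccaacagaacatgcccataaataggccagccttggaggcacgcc

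Total counts per bulk library were between 22734843 and 35118164 in the retina and between 20133143 and 38409496 in the RPE. The targeted gene Adipor1 was lower in every KO library, with 138 ± 2.44 counts-per-million (CPM; SD, n = 4) in KO and 600 ± 8.08 in WT retina, and 145 ± 5.77 in KO and 409 ± 48.6 in WT RPE. The 6 single-cell libraries held 26764 cells with 5172257 to 25439885 unique molecular identifiers (UMIs) each, and 49 barcodes occurred in 2 libraries. Those of P30 were sequenced apart from those of P19 and P25, so that this age and its sequencing run cannot be told apart. For the crystallins, 2 WT libraries of each bulk tissue (replicates 2 and 4) and 1 single-cell library (WT P19) stood apart from the others, and the KO to WT values of the members in bulk and at P19 are given with and without them. Replicates are the libraries that the labels number within a group, and the study describes the bulk libraries of a group as taken from separate mice.

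Among the alpha crystallins, Cryaa, the partner of Cryab in the lens, varied most from library to library. In WT retina it had 0.068, 6.13, 0.527 and 36.8 CPM in replicates 1 to 4, and in KO retina 1.84, 2.09, 0.203 and 0.084. In the RPE it had 0, 209, 5.48 and 514 CPM in the WT and 8.63, 3.37, 0.491 and 0.12 in the KO libraries. WT replicates 2 and 4 were the highest in both tissues, WT replicate 1 of the RPE had no read at all, and the ranges of the genotypes overlapped in both tissues. Cryab was present in every library and varied less within each group than Cryaa. In WT retina Cryab had 25.7, 30.2, 28.8 and 33.2 CPM and in KO retina 43.81, 49.96, 49.04 and 47.77. In the RPE the values of Cryab were 315, 256, 252 and 481 CPM in WT and 352, 293, 304 and 325 in KO. No Cryab value of a KO retina lay within the WT range, whereas the genotypes overlapped in the RPE. The order of Cryab in WT retina, with replicate 4 first, then 2, 3 and 1, was that of Cryaa. In WT RPE replicate 4 was the highest for both genes, and the order of Cryab after it was 1, 2 and 3.

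The beta crystallins, the bulk of the soluble protein of the lens cortex, mostly followed Cryaa. Crybb2 had 0.102, 2.61, 0.188 and 11.0 CPM in WT retina and 0.027, 84.4, 2.48 and 172 in WT RPE, with KO values of 0.042 to 1.04 in the retina and 0.08 to 3.97 in the RPE. Cryba1 had 0.034, 1.94, 0.151 and 9.40 CPM in WT retina and 0, 64.1, 1.5 and 113 in WT RPE. In the same tissues Cryba2 reached 3.56 and 48.7 CPM and Cryba4 3.63 and 56.1, in WT replicate 4 in each case. Crygs, the gamma crystallin of the outer lens fibres, had 0, 1.16, 0.226 and 5.21 CPM in WT retina and 0.054, 38.4, 1.24 and 56.4 in WT RPE. For each of these genes WT replicates 2 and 4 were the highest of the tissue, and the KO range lay within the WT range or overlapped it.

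Crybb3 kept a level in libraries in which most of the others were near 0. Crybb1 did so in WT retina replicate 1 and KO retina replicates 3 and 4. It was itself low in WT retina replicate 3 (0.188 CPM) and WT RPE replicate 1 (0.027). Crybb3 had 0.816, 1.62, 0.678 and 4.58 CPM in WT retina and 1.98, 1.67, 1.76 and 2.77 in KO retina. In the RPE it had 1.33, 28.2, 2.14 and 54.6 CPM in WT and 3.21, 2.19, 1.59 and 2.36 in KO libraries. Thus its lowest retina library had 18 reads of Crybb3, while that of Cryaa had 2. Crybb1 had 0.748, 0.634, 0.188 and 2.61 CPM in WT retina and 0.631, 0.658, 0.440 and 0.630 in KO retina, a range in KO of 13 to 23 reads. In WT RPE its values were 0.027, 21.5, 0.75 and 31 CPM. WT replicate 1, which had almost none of the other lens crystallins in the retina, had the next to highest value of Crybb1 there.

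**Figure D1:**
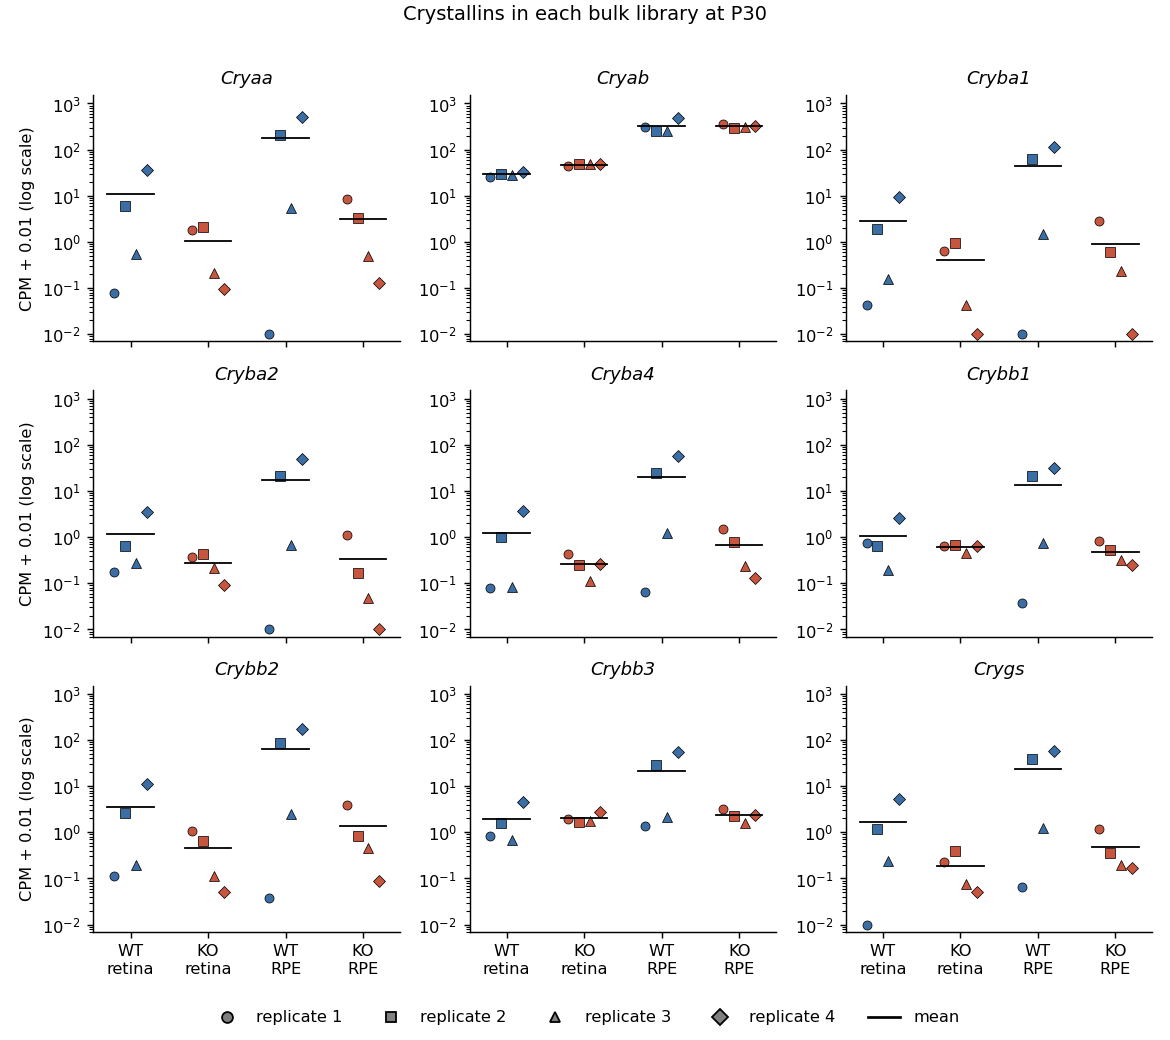
Level of each of the 9 crystallins in each bulk library at P30, in counts-per-million plus 0.01 on a log scale, with WT in blue, KO in red, 1 marker shape for each replicate number and a line at the group mean. Cryab lies within a narrower band than the other 8 in each group, and these 8 reach their highest values in WT replicates 2 and 4 of the RPE.

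Per kilobase of exon, where levels of different genes can be set side by side, Cryab was the highest of the 9 in each of the 4 groups, with 19.9 ± 2.11 reads-per-kilobase-per-million (RPKM; SD, n = 4) in WT retina and 32.2 ± 1.83 in KO retina. In WT retina the next in order were Cryaa at 5.24 ± 8.44 RPKM, Crygs at 1.89 ± 2.77, Cryba1 at 1.81 ± 2.78 and Crybb2 at 1.73 ± 2.56. Since each of these 4 values has an SD above its mean, their order does not exceed the spread between libraries. In KO retina Crybb3 came next to Cryab, at 0.877 ± 0.215 RPKM, followed by Crybb1 at 0.599 ± 0.102 and Cryaa at 0.508 ± 0.51. In WT RPE Cryab had 220 ± 72.5 RPKM and Cryaa 87.8 ± 116, and in KO RPE 215 ± 17.4 and 1.52 ± 1.89.

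The shares of the single members were compared among the libraries that were rich in them. In the 5 libraries with at least 500 reads of the 8 crystallins other than Cryab (WT retina replicate 4, WT RPE replicates 2, 3 and 4 and KO RPE replicate 1), Cryaa made up 35.4 to 49.1% of these reads, Crybb2 14.3 to 17.2%, Cryba1 9.70 to 13.1% and Cryba2 4.29 to 4.65%. Crygs made up 5.12 to 8.02%, Cryba4 4.72 to 7.84% and Crybb1 2.96 to 4.85%. The sums themselves ranged over these libraries from 536 to 20014 reads. Crybb3, with 5.22 to 13.8%, had the widest range of the 8 on the log2 scale (SD 0.72, compared with 0.06 to 0.31 for the others). Set against the same sum, Cryab ranged from 43.2 to 1630%, with an SD of 2.78.

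Libraries with the same genotype and number were in a similar order in the retina and in the RPE. The summed CPM of the 8 crystallins was 2.01, 15.7, 2.30 and 76.8 in WT retina and 1.49, 491, 15.5 and 1050 in WT RPE. The order of the 4 WT libraries was therefore the same in both tissues, with replicate 4 first, then 2, 3 and 1. In KO libraries the sums were 7.11, 7.06, 2.91 and 3.91 CPM in the retina and 23.3, 8.77, 3.51 and 3.08 in the RPE, with replicates 1 and 2 first in both and replicates 3 and 4 exchanged. Taken 1 by 1, Cryaa, Cryba1, Cryba2, Cryba4, Crybb2 and Crygs each had the same WT order in both tissues, and Crybb1, Crybb3 and Cryab did not. In KO only Crybb2 had the same order in both tissues, and 7 of the 9 had their highest retina and RPE values in libraries with different numbers. Whether libraries with the same number came from the same mouse is not given in the labels.

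**Figure D2:**
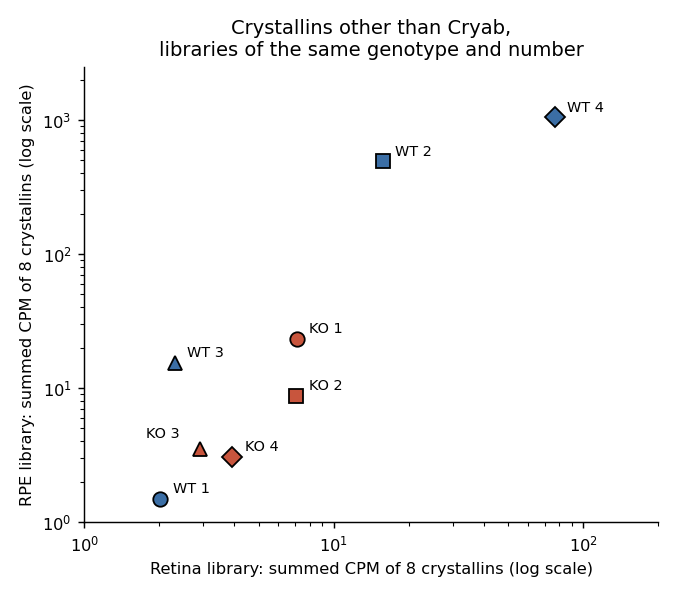
Summed counts-per-million of the 8 crystallins other than Cryab in the retina library (x axis) and in the RPE library (y axis) of the same genotype and number, both on log scales, 1 point for each pair of libraries. WT 4 and WT 2 lie at the upper right with 76.8 and 15.7 in the retina and 1050 and 491 in the RPE, and WT 1 lies at the lower left.

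The comparison of KO with WT retina asked which crystallins change as photoreceptors degenerate. Cryab rose in KO retina by 0.69 ± 0.074 on the log2 scale (SE, n = 4 per genotype), or 1.62-fold, with a p of 9.8e-06 after Benjamini-Hochberg adjustment over all genes in the quasi-likelihood test of edgeR. It was the only one of the 7 tested members that was called (adjusted p below 0.05 and a change of at least 1.5-fold) in either direction, in a comparison in which 10.0% of 19381 genes were called. Cryba4 and Crygs had too few reads in the retina to pass the filter on low counts. Under the other tests, scalings and left-out libraries Cryab stayed called with changes of 0.63 to 0.81, the last of these without both WT libraries rich in the other crystallins. In bulk tissue a change in the number of cells of a type and a change in RNA per cell cannot be told apart. In the same libraries 7 of 8 rod markers were called lower in KO, with summed levels of 58000 to 63900 CPM in WT and 30000 to 34300 in KO, and 2 of 8 Müller glia markers were called higher, with summed levels of 3990 to 4320 CPM in WT and 4240 to 4630 in KO. Of 4 astrocyte markers 2 were called higher, with summed levels of 40.4 to 52 CPM in WT and 220 to 284 in KO. Their part in the change of Cryab in bulk was not tested.

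The other 6 tested members had wide errors in the retina. The log2 change was -3.26 ± 1.2 for Cryaa (adjusted p = 0.051), and for Crybb2 it was -2.81 with an adjusted p of 0.062. Values of -2.70 for Cryba1 (adjusted p = 0.087), -2.03 for Cryba2 (adjusted p = 0.079) and -0.82 for Crybb1 (adjusted p = 0.28) did not pass the threshold either. Crybb3 had a log2 change of 0.07 (adjusted p = 0.93). The median over the 7 tested members was -2.03, compared with 0.004 over all genes tested. These values rested on WT replicates 2 and 4 of the retina, whereas replicates 1 and 3 had 2 and 14 reads of Cryaa, within or at the edge of the KO range of 2 to 70. Without WT replicate 4 the change of Crybb1 was 0.16 and that of Crybb3 0.96, with an adjusted p of 0.03 that put Crybb3 among the called genes, 2 members in all. There 9.79% of 19632 genes were called. Without WT replicate 1 or without WT replicate 3, 7 members were called, Cryab, Cryaa, Cryba1, Cryba2, Crybb2, Cryba4 and Crygs, of which Cryba4 and Crygs had not passed the filter in the fit of all 8 libraries. In these fits 9.28% of 19638 and 9.68% of 19646 genes were called, and without KO replicate 2, where Cryab and Cryaa were called, 9.86% of 19521. Without both WT replicates 2 and 4 the signs turned, with log2 changes of 1.92 ± 1.1 for Cryaa, 2.23 ± 1.4 for Cryba1, 0.37 ± 0.61 for Cryba2, 1.74 ± 1.1 for Crybb2 and 0.31 ± 0.45 for Crybb1, none of them called (adjusted p of 0.25 to 0.71). Crybb3 was called there with 1.43 ± 0.26 (adjusted p = 0.0031), in a fit that called 9.65% of 19972 genes. Since these libraries were left out for their crystallin reads, lower WT levels and higher log2 changes follow from the choice.

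In the RPE none of the 9 members was called in edgeR's test, in which 4.97% of 18989 genes were called. DESeq2 called 6 members and 7.59% of the 18989 genes, and limma-voom 0 members and 4.97%. Of the 9 members 8 had an unadjusted p below 0.05, as had 20.3% of all genes tested. All 9 log2 changes were negative, with a median of -5.58 compared with -0.019 over all genes tested. Crygs had a log2 change of -5.63 ± 1.8 (adjusted p = 0.11) and Cryaa one of -5.84 ± 2.1 (adjusted p = 0.17), and Cryba1, Cryba2, Cryba4, Crybb1, Crybb2 and Crybb3 lay between -5.73 and -3.20 with adjusted p of 0.14 to 0.17. Over the other tests, scalings and single left-out libraries Cryaa ranged from -7.10 to -2.44 and Crygs from -6.65 to -3.06. Of the WT libraries, replicate 1 lay below every KO library for Cryaa and replicates 2 and 4 lay far above, so that the groups overlapped although the mean was 182 CPM in WT and 3.15 in KO. Without WT replicate 1 of the RPE, 8 members were called lower in KO, in a fit that called 8.72% of 19226 genes. Without any other single library none was called, in fits that called 2.91 to 5.03% of genes. Without both WT replicates 2 and 4 none was called either, and the log2 changes of the 8 crystallins other than Cryab lay between -0.43 ± 1.2 for Crygs and 0.43 ± 0.35 for Crybb3, with 0.21 ± 1.9 for Cryaa. Of 10 lens markers other than crystallins, 5 were tested in the RPE and 2 were called, both lower in KO, with summed levels of 24.5 to 65.4 CPM in WT and 17.4 to 25.9 in KO, and the summed rod markers ranged from 963 to 15300 CPM in WT and from 627 to 5230 in KO RPE. Their part in the crystallin values was not tested. Cryab had a log2 change of -0.04 ± 0.2 in the RPE (adjusted p = 0.94). Its sign was not stable, and without the WT libraries 2 and 4 it was 0.17 (adjusted p = 0.57).

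**Figure D3:**
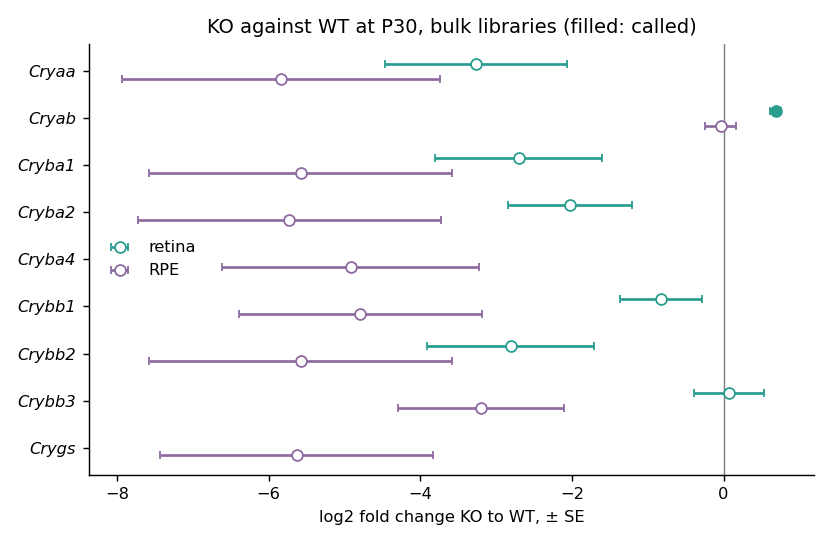
Log2 fold change of KO compared with WT for each crystallin in bulk retina (teal) and bulk RPE (purple), with bars of ± SE from edgeR's quasi-likelihood fit and a filled point where the gene was called. Cryab in the retina, at 0.69, is the only filled point, and the 9 points of the RPE all lie to the left of 0, the farthest of them Cryaa at -5.84.

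The change of Cryab in the RPE minus that in the retina, tested as an interaction term fitted to the 16 bulk libraries, was -0.70 ± 0.22 with an adjusted p of 0.063 in edgeR's quasi-likelihood test. None of the 9 members passed this test, in which 8.84% of 21068 genes did, and 3 members had an unadjusted p below 0.05, as had 22.3% of the genes. DESeq2 called 1 member, Crybb3 (adjusted p = 0.048), and 10.8% of the genes. Over the alternatives the adjusted p for Cryab was between 0.019 and 0.13, and it fell below 0.05 with library totals alone (0.019) and without WT RPE replicate 2, 3 or 4 (0.02, 0.034 and 0.038). Without WT RPE replicate 1 the called member was Crybb3, with a difference of -3.62 and an adjusted p of 0.049.

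Between the WT tissues all 9 crystallins had higher means in the RPE than in the retina. Cryab was called, with a log2 difference of 3.77 ± 0.22 (13.7-fold; edgeR's adjusted p = 2.1e-06), and its ranges did not overlap. Cryba4 (4.36, adjusted p = 0.049), Crybb1 (3.95, adjusted p = 0.044) and Crybb3 (3.77, adjusted p = 0.022) were called too, with overlapping ranges, so that 4 of the 9 were called in a comparison in which 66.2% of 20009 genes were called. The differences of the other 5 lay between 4.14 and 4.50 with adjusted p of 0.056 to 0.10. Leaving out 1 library, in fits that called 64.5 to 67.7% of genes, moved the count between 1 and 9 members. It was 1 without WT retina replicate 1, 2 or 3 or WT RPE replicate 4, 2 without WT RPE replicate 2, 8 without WT retina replicate 4 and 9 without WT RPE replicate 1, while Cryab was called throughout.

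Lists of related genes gave the setting of these values. They were chosen with earlier results of these data known. Of the other crystallins, Crygb, Crygc, Crygd, Cryge and Crygf, the gamma crystallins of the lens core, had log2 changes of -6.38 to -5.22 in the RPE with adjusted p of 0.11 to 0.17, and Crygn one of -0.23. None of these 6 tested genes was called. These 5 gamma crystallins share 19.73 to 48.33% of their exon words with each other and with other genes, so that reads cannot be assigned with certainty among them. In WT RPE replicates 1 to 4 Crygd, for example, had 0, 2791, 71 and 883 reads, and replicate 2 was thus above replicate 4, the reverse of Cryaa. Of 12 other genes of the lens fibre, 6 were tested in the RPE and 2 were called, both lower in KO. They were Mip, the major membrane channel of the lens fibre (-1.89, adjusted p = 0.017), and Lim2, another protein of its membrane (-0.92, adjusted p = 0.0078). Grifin, a lens galectin, did not pass the test (-1.68, adjusted p = 0.14). In the retina 4 of the 12 were tested and 1 was called, Tdrd7 (-0.72, adjusted p = 1.7e-07), a gene with roles outside the lens as well, while Bfsp2 and Bfsp1, the subunits of the beaded filament, had changes of -0.22 and 0.19. Of the 10 lens markers 3 were tested in the retina and none was called, and their summed levels were 1.29 to 4.01 CPM in WT and 1.98 to 2.60 in KO. Of 9 genes of the lens epithelium and transcription factors of the lens, 6 were tested in each tissue and none was called in either. The smallest p belonged to Sox2 in the retina (0.25, adjusted p = 0.033) and to Six3 in the RPE (-0.34, adjusted p = 0.005), with changes below the fold needed.

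Genes of tissues next to the lens were counted as well. Of 5 cornea genes 3 were tested in the retina and 2 were called, Krt5, a keratin of surface epithelium (5.45, adjusted p = 0.038), and Aldh3a1, a soluble enzyme of the corneal epithelium (4.58, adjusted p = 0.034). Both rested on KO retina replicate 2, with 145.7 CPM of Krt5 compared with 0.034 to 2.45 in the other 7 retina libraries. In the RPE none of the 5 was called, and Krt5 had 226 to 1780 CPM in WT and 1242 to 1965 in KO. Of 7 genes of the iris, ciliary body and trabecular meshwork, 6 were tested in each tissue and none was called. In the RPE Myoc had a change of 0.97 (adjusted p = 0.054), Col9a1 one of -1.81 (adjusted p = 0.074) and Optc one of -2.39 (adjusted p = 0.10). The part of these tissues in the crystallin values was not tested.

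Among 7 other small heat shock proteins, the family of the alpha crystallins, Hspb1 rose in KO retina (0.59 ± 0.18, adjusted p = 0.024) and was the only called one of 5 tested. Hspb6 had a change of 0.36 ± 0.045 with an adjusted p of 4.6e-05, below the fold needed, and in the RPE it was the only called one of 7 tested (0.77 ± 0.13, adjusted p = 0.011). Of 11 other chaperones and heat shock factors Bag3, a co-chaperone that binds small heat shock proteins, was the 1 called in the retina, and it rose by 1.35 ± 0.14 (adjusted p = 6.8e-06). Hsf2, a heat shock factor (-0.49), and Hsp90aa1, an inducible chaperone (-0.52), had adjusted p below the threshold but changes of less than 1.5-fold. None of the 11 was called in the RPE. Of 4 enzymes that bear the name crystallin, Crym, a ketimine reductase that binds thyroid hormone, rose in KO retina from 45.2 ± 5.5 to 169 ± 7.77 CPM (1.91 on the log2 scale, adjusted p = 4.7e-10), and Cryz, Cryl1 and Cryzl1 had changes of -0.06 to 0.11. None of the 4 was called in the RPE.

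Genes whose levels ran most alike were found by the SD of the log2 ratio over the 8 libraries of a tissue, among all genes that passed the filter. For the 8 crystallins together in the retina they were Spocd1 (SD 0.885), Ogn (1.12), Best2 (1.17), Mfap4 (1.22) and Penk (1.23), compared with an SD of 1.65 for the sum itself. In the RPE they were Best2 (2.22), Notum (2.40), Dio3 (2.40), Crhbp (2.41) and Stac (2.43), compared with 3.33. The closest genes thus differed from the sum by an SD of 0.885 or more. For Cryab the closest in the retina were Chst2 (0.075), Itgav (0.076), Tnfrsf10b (0.078), Siah3 (0.085) and Prdx6 (0.086), compared with 0.385 for Cryab itself, and in the RPE Bcap29 (0.086), 1810034E14Rik (0.102), Gm40932 (0.103), P4ha3 (0.111) and Tyrp1 (0.112), compared with 0.294.

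The single-cell libraries, 1 for each genotype and age, give no test between genotypes, and intervals there are exact Poisson or binomial ones at 95% that cover counting error only. Levels are given as UMIs in counts-per-million (CPM) of the UMIs of the class. Cells were clustered without the crystallins, and clusters were named from marker genes. In WT P19 the library held 4832 UMIs of Cryaa, 1431 of Crybb2, 1043 of Crygs, 409 of Cryba1 and 323 of Cryba2. In the other 5 libraries together Cryaa had 9 UMIs, Crybb2 21 and Crygs 6, with 38 of Cryba1 and 66 of Cryba2. WT P19 thus held nearly all UMIs of Cryaa, Crybb2 and Crygs. Cryab had 9925 UMIs in WT P19 and 17554 in the other 5.

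Most of the lens crystallin in WT P19 lay in 8 cells. With at least 50 UMIs of the 8 crystallins each (76 in the lowest of them, 23 in the next cell of the library), these 8 of 5439 cells held 87.7% of the 9401 UMIs of these genes. They held 97.1% of the UMIs of Cryaa, 92.7% of Crybb2, 91.5% of Crygs and 77.1% of Cryba2, but 50.8 to 55.2% of Crybb1, Cryba4 and Crybb3. No cell of the other 5 libraries reached 50 UMIs. The 8 cells were of 2 kinds. In 4 deep cells, with 8449 to 37093 UMIs, Cryab had 784 to 2421 UMIs and Cryaa 172 to 2369. The 6 measured gamma crystallins other than Crygs together had 0 to 9 there. These 4 cells fell into cluster 34, a cluster left unnamed, in which 1 of 7 lens markers was detected. Its leading genes were Optc, Fbln1, Dcn, Crhbp and Pmel. In the other 4 cells, with 971 to 2556 UMIs, Cryab had 7 to 47, Cryaa 12 to 65 and the same gamma crystallins 25 to 145. These shallow cells lay among rods and Müller glia, with 0 UMIs of the Müller glia gene Rlbp1. Doublets were neither called nor removed.

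Outside these 8 cells WT P19 still had more of the lens crystallins than the other libraries. Cryaa was left with 142 UMIs, 5.60 CPM (4.72 to 6.60), compared with 0 to 0.193 CPM in the other 5 libraries. Crygs was left with 89 and Crybb2 with 104 UMIs. A UMI of Cryaa was found in 2.39% of the 5439 cells of WT P19, compared with at most 0.0916% in any other library. In KO P30 it was found in 0 of 3467 cells, which allows a share of up to 0.106% by the exact interval. As free RNA in a droplet gives UMIs to cells that do not express a gene, these shares are no measure of expression.

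**Figure D4:**
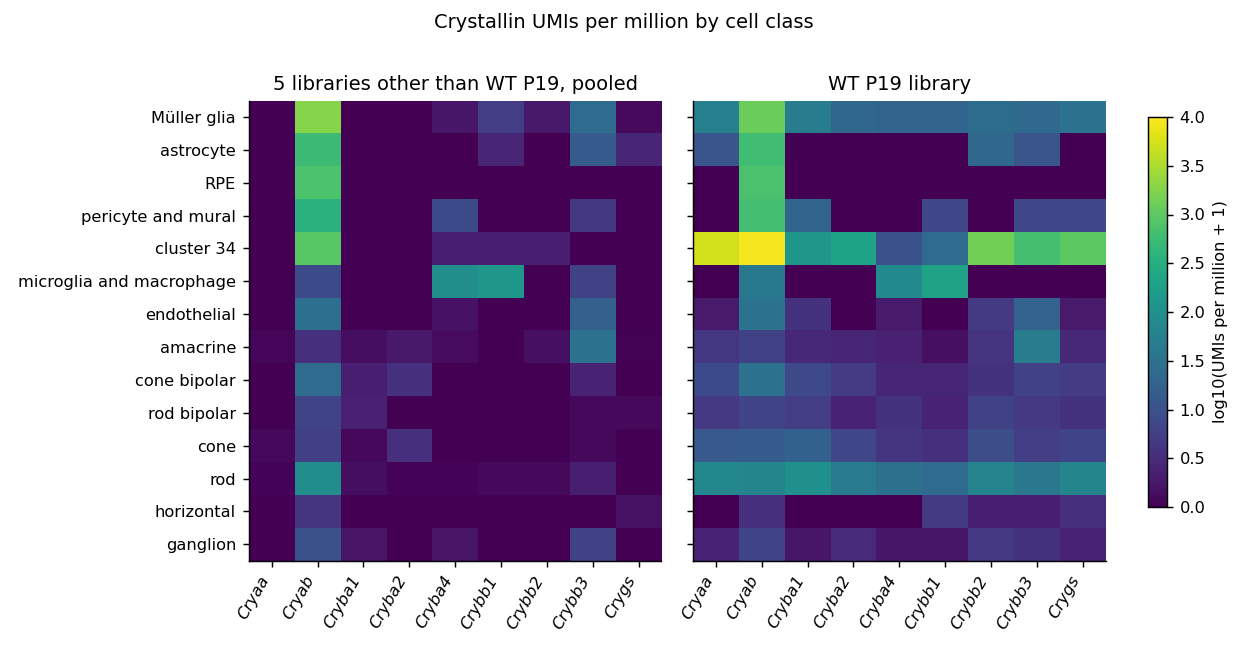
Level of each crystallin in CPM of the UMIs of a cell class, as log10 of the value plus 1, with the 5 libraries other than WT P19 pooled on the left and WT P19 on the right. On the left Cryab is seen in Müller glia at 1851 CPM and in astrocytes, RPE cells and cluster 34. Crybb3 is seen there in amacrine cells, Müller glia, endothelial cells and astrocytes, and Cryba4 and Crybb1 in microglia and macrophages. On the right all 9 genes are seen in cluster 34 and weaker values in most classes.

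In the 5 libraries other than WT P19, the genes fell to different retinal cells. Cryab had 14810 of its 17554 UMIs in Müller glia (84.4%), the radial glia that span the retina, where it reached 1851 CPM (1822 to 1881). It reached 561 CPM in astrocytes, 733 in the 49 RPE cells, 353 in pericytes and 914 in cluster 34, but 2.60 in amacrine cells, 4.63 in cones, 5.55 in rod bipolar and 23.9 in cone bipolar cells. Rods stood at 91, with 794 of their 914 UMIs in a cluster of KO P25 described later. Thinned to 1000 UMIs per cell, 59.8 to 83% of Müller glia and at most 1.08% of cones had a UMI of Cryab in each of the 6 libraries. Unthinned, these shares were 77.7 to 98.6% and 0.901 to 4.32%, at median depths of 1829 to 5488 and 1783 to 4938 UMIs. The shares in cones are given for comparison, and the level of free RNA in the libraries was not estimated.

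Most UMIs of Crybb3 lay in amacrine cells, the inhibitory interneurons of the inner retina, with 747 of 1031 (72.5%). Of these, 686 lay in cluster 8, at 143 CPM (132 to 154), whose leading genes were Maf, Lpl and Npnt. It was named amacrine from 7 of 9 markers, none of them among its 10 leading genes. A UMI of Crybb3 was found in 30.0 to 38.9% of cluster 8 cells in each of the libraries of P19 and P25 and, thinned, in 8.42 to 12.8%, compared with 0 to 1.62% of cones unthinned and 0 to 0.843% thinned. The median depth was 7711 to 10064 UMIs in these cluster 8 cells and 1783 to 4938 in cones. Müller glia held another 191 UMIs (18.5%). With WT P19 left out, Crybb3 had 30.3 CPM in amacrine cells as a whole, 23.9 in Müller glia, 15.6 in endothelial cells and 13.6 in astrocytes. Its share in amacrine cells thus came with a level close to that of Müller glia. P30 put 1 cell into cluster 8, so that its level there was not detectable at that age.

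Crybb1 and Cryba4, the neighbours on chromosome 5 whose promoters are printed above, both had most of their UMIs in the same class. Microglia and macrophages held 77 of 116 UMIs of Crybb1 (66.4%; 132 CPM, 104 to 165) and 55 of 77 UMIs of Cryba4 (71.4%; 94.3 CPM, 71.1 to 123), in 117 cells. Crybb1 was also found in Müller glia, with 35 UMIs, and Cryba4 there with 6. Neither had more than 2 UMIs in rods, where 10040439 UMIs were counted. Thinned to 1000 UMIs, 0 to 18.8% of microglia and macrophages of a library had a UMI of Crybb1 and 0 to 0.264% of rod bipolar cells. Unthinned, these shares were 0 to 57.1% and 0 to 0.506%, at median depths of 1351 to 6730 and 1885 to 4283 UMIs. Crybb2, the neighbour of Crybb3, had 11 of its 21 UMIs in amacrine cells and 7 in Müller glia, too few to compare its levels.

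Cryba2 and Cryba1 had few UMIs. Of the 66 UMIs of Cryba2, 33 lay in cone bipolar cells, which pass cone signals to the inner retina, and 24 of these in cluster 17, at 15.6 CPM (9.96 to 23.1). Of the 38 UMIs of Cryba1, 14 lay in cone bipolar, 10 in amacrine and 6 in rod bipolar cells, at 1.14, 0.406 and 1.33 CPM, too few to place it. Both had 0 UMIs in the Müller glia of these libraries, which allows at most 0.461 CPM by the exact interval. Cryaa and Crygs had too few UMIs to be placed.

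In Müller glia Cryab was higher in KO at each age. At P19 it had 2555 CPM in KO and 1245 in WT, a ratio of 2.05 (1.95 to 2.16), and 2.08 without the 1 of the 8 cells that lay there. At P25 the values were 1847 and 1110, with a ratio of 1.66 (1.58 to 1.75), and at P30 1385 and 948, with a ratio of 1.46 (1.26 to 1.70). In bulk retina of P30 the ratio was 1.62. The class had 130 to 379 cells in WT and 154 to 533 in KO libraries, and it joined 2 clusters that differ in the ages they hold, with most cells of P19 and P25 in cluster 4 and 127 of the 130 WT and 153 of the 154 KO cells of P30 in cluster 16. Within cluster 4 the ratios were 2.09 and 1.67 at P19 and P25, and within cluster 16 they were 1.74, 1.59 and 1.47 at the 3 ages. The value of 1.74 includes the 1 of the 8 cells, which lay in cluster 16. Without that cell cluster 16 had 1447 CPM of Cryab in WT P19, compared with 3130 in KO P19. The median log2 ratio of all genes in Müller glia was -0.13 to -0.09. Cryab was past a 2-fold difference at P19, where 5.78% of 10729 genes were past it in either direction. It was not at P25 and P30, where 7.56% of 11214 and 11.9% of 4988 genes were.

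Over whole libraries the ratio for Cryab at P19 depended on the 8 cells. At P19 it was 0.781, and without the 8 cells 2.46. At P25 it was 3.34 (3.19 to 3.51) and at P30 1.91 (1.68 to 2.18). All 9 members could be compared at P19, and 8 were past a 2-fold difference, each lower in KO, where 4.12% of 16746 genes were past it in either direction. At P25 3 of 6 were past it, 2 higher and 1 lower in KO, with 7.55% of 16586 genes, and at P30 neither of 2, with 6.20% of 13056 genes. Without the 8 cells 6 of the 9 were past it at P19, Cryab higher and Cryaa, Cryba1, Cryba2, Crybb2 and Crygs lower in KO, where 4.10% of 16739 genes were past it. Since the 8 cells were all of WT P19 and left out for their crystallin UMIs, lower WT levels follow from the choice. The levels in WT P19 were then 5.60 CPM for Cryaa, 5.25 for Cryba1, 2.92 for Cryba2, 4.10 for Crybb2 and 3.51 for Crygs, compared with 0.0858, 0.601, 1.29, 0.386 and 0.0429 in KO P19. Crybb1, Cryba4 and Crybb3 had ratios of 0.756, 0.631 and 0.900 with intervals that held 1.

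In astrocytes, RPE cells and pericytes no KO to WT ratio of Cryab was above 1 beyond counting error. Astrocytes had KO to WT ratios of 0.919 (0.671 to 1.27) at P19 and 0.862 (0.628 to 1.19) at P25, over 10 to 24 cells. In the RPE cells, 4 to 20 per library, the ratios were 1.16, 0.607 and 0.781, each with an interval that held 1. Pericytes had 401 CPM in KO and 647 in WT at P19, a ratio of 0.620 (0.455 to 0.841). In rods the ratio was 10.2 at P25, where 794 of 814 UMIs of KO rods lay in cluster 41, a cluster named rod with 103 KO P25 cells, a median of 7112 UMIs per cell against 2523 in the library, and Rlbp1, a Müller glia gene, at 853 CPM. At P19 the rod ratio was 0.256, but 3 of the 8 cells lay among the WT rods with 65 of their 87 UMIs, and without them it was 1.01 (0.542 to 1.89). At P30 it was 0.455 (0.247 to 0.816), from 20 UMIs in KO and 33 in WT.

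Crybb3 differed by cell. In Müller glia it had 30.5 CPM in KO and 10.1 in WT at P25 (ratio 3.01, 1.79 to 5.39) and 41 and 11.8 at P30 (ratio 3.47, 1.03 to 18.2), the last from 20 and 3 UMIs. At P19 both were 22.6. Of the 8 cells 1 lay among the WT Müller glia, with 20 of their 34 UMIs, and without it the ratio was 2.42 (1.33 to 4.71). As that cell was left out for its crystallin UMIs, Crybb3 among them, a lower WT level and a higher ratio follow from the choice. In cluster 8 the ratio was 1.11 (0.949 to 1.29) at P19 and 1.01 (0.819 to 1.25) at P25, and in amacrine cells as a whole 0.850, 1.24 and 0.831 at the 3 ages. The difference between the cell types was not tested, for want of replicates.

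Crybb1 in microglia and macrophages had 33 UMIs in KO and 10 in WT at P19 (159 and 202 CPM) and 29 and 9 at P25 (106 and 225), with intervals of the ratio that held 1 at both ages (0.379 to 1.79 and 0.218 to 1.13). Cryba4 had 21 and 4 UMIs at P19 and 31 and 0 at P25. The number of these cells was 32 in KO and 17 in WT at P19, 40 and 7 at P25, and 33 and 5 at P30. In bulk retina all 8 markers of microglia and macrophages were called higher in KO, with summed levels of 55.1 to 57.6 CPM in WT and 181 to 209 in KO, and 6 of 8 were called higher in KO RPE. Their part in the bulk levels of Crybb1 and Cryba4 was not tested.

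Crym, not a lens crystallin in the mouse, was higher in KO Müller glia as well. In Müller glia it had 2441 CPM in KO and 1232 in WT at P19, a ratio of 1.98 (1.88 to 2.09), and ratios of 2.93 (2.78 to 3.08) at P25 and 2.57 (2.25 to 2.95) at P30. Hspb1 and Hspb6 had few UMIs there. Hspb1 had ratios of 0.645 (0.343 to 1.21) at P19 and 2.36 (1.24 to 4.85) at P25, and 17 UMIs in KO and 0 in WT at P30. Hspb6 had ratios of 1.17 (0.725 to 1.92) at P19, 2.45 (1.29 to 5.02) at P25 and 1.04 (0.421 to 2.81) at P30.

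**Figure D5:**
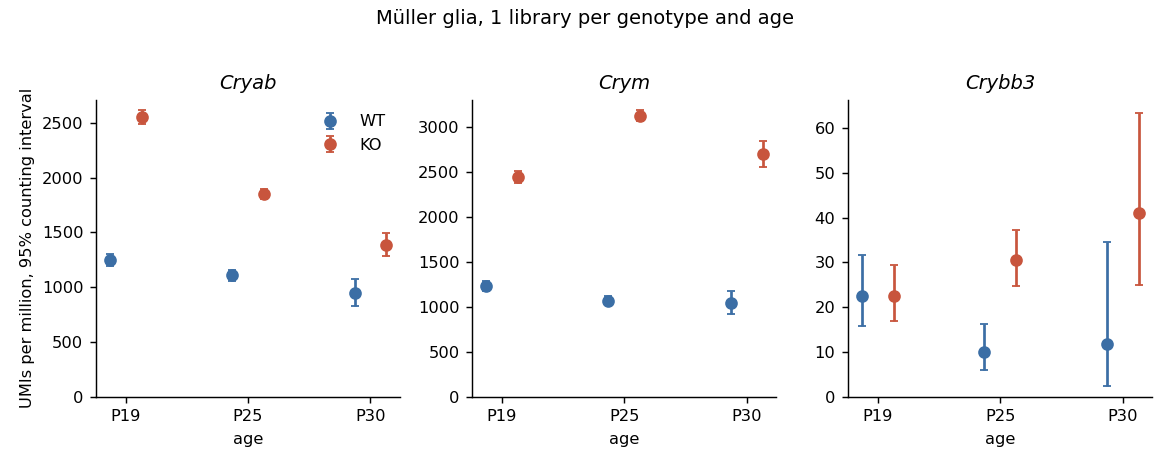
CPM of Cryab, Crym and Crybb3 in Müller glia at P19, P25 and P30, 1 library per point, WT in blue and KO in red, with bars that span the exact 95% Poisson interval of counting error. Cryab and Crym lie higher in KO at all 3 ages, at 2555 and 2441 in KO P19, and Crybb3 has wide bars at P30, where it rests on 20 and 3 UMIs.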

How the data were processed

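For bulk RNA-Seq the values deposited by the authors are raw read counts for every gene and library, without normalization. Their processing notes name mm10, bcl2fastq, FastQC, edgeR 3.20.9 and HOMER, and for single cells Cell Ranger 2.1 and Seurat 3.2.2; no source used here names the aligner or counter of the bulk reads. The single-cell matrix deposited by the authors is on a natural log scale. After 2 inverse steps 99.99946% of them were whole to within 0.01 (66.67% after 1), and in 2 cells a value was not, so the recovered UMI counts were used. Symbols and gene spans came from GENCODE M21 (53620 of 53801 identifiers matched).

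Bulk counts were compared in R 4.3.3 with edgeR 4.0.16 (TMM, default filter on low counts, quasi-likelihood test, Benjamini-Hochberg adjustment over all genes tested), and a gene was called at an adjusted p below 0.05 with a change of at least 1.5-fold; the interaction needed the adjusted p only. DESeq2 1.42.0, limma-voom (limma 3.58.1), other scalings, no filter, a fit of both tissues, robust dispersion, left-out libraries and the replicate number as a block were alternatives. Deviations of WT and KO libraries with the same number correlated at 0.164 to 0.293 in the retina and 0.356 to 0.705 in the RPE. Correlations between libraries with different numbers are not given here, so these values do not decide whether the numbers pair the samples. The labels give no shared litter or day, and the main tests had no block. Cells were clustered in Python 3.11.15 (scikit-learn 1.9.0, leidenalg 0.10.2) on 30 components of 2000 variable genes without crystallins, at 15 neighbours and resolution 1.0, into 46 clusters. Ratios of single-cell sums needed 20 UMIs in both libraries together. The bulk and single-cell scripts were tested on simulated data.

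The members, lists, markers and tests were chosen with earlier results of these data known. Named were all 9 members, of each list up to 3 tested genes with the smallest p in a tissue, Adipor1, and the 5 genes most alike for the 8 crystallins and for Cryab in each tissue. The comparison of member proteins that was planned was not made.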

Additional observations from a re-analysis of the deposited data

Results flagged for a closer look

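In 4 of the 36 sets of 4 libraries (9 crystallins in 4 groups), 1 library lay far from the other 3 by Dixon's test at 95%, which chance gives in about 1 of 20 sets. Cryaa in WT retina was 36.82 CPM in replicate 4. Cryba2 in WT retina was 3.556 CPM in replicate 4, the same library. Cryba2 in KO RPE was 1.083 CPM in replicate 1, the KO library with the most of the 8 crystallins in that tissue. Crybb1 in KO retina was low in replicate 3, with 0.4396 CPM.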

How the results depend on the processing

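Of the members called in the retina, 1 as reported, there were 2 with library totals alone, where 11.3% of all genes were called. With no filter on low counts 7 were called (6.91% of genes), and with 1 library left out 1 to 7 (9.28 to 10.3%). In the RPE, with 0 as reported, DESeq2 gave 6 (7.59% of genes) and a single fit of both tissues 5 (7.46%). Single left-out libraries gave 0 to 8 there (2.91 to 8.72%). The interaction gave 1 with DESeq2 (10.8% of genes), 1 with library totals (11.9%) and 0 to 1 with a library left out (6.81 to 10.7%). For WT RPE against WT retina, with 4 as reported, DESeq2 gave 7 (66.3% of genes), library totals 2 (68.1%) and the replicate block 8 (65.9%). Left-out libraries gave 1 to 9 in that comparison (64.5 to 67.7%). Crybb3 in the retina changed sign to -0.09, -0.18, 0 and -0.20 without KO replicate 4 and WT replicates 1, 2 and 3, and Crybb1 to 0.16 without WT replicate 4. Cryab in the RPE changed sign to 0.01 with the replicate block, 0.01 without KO replicate 2, and 0.21 without WT replicate 4. Without both WT replicates 2 and 4, added after the data were seen, 2 members were called in the retina and 0 in the RPE. The sign then turned in the retina to 1.92 for Cryaa, 2.23 for Cryba1, 0.37 for Cryba2, 1.74 for Crybb2 and 0.31 for Crybb1, and in the RPE to 0.21 for Cryaa, 0.31 for Cryba1, 0.08 for Cryba4, 0.29 for Crybb1, 0.10 for Crybb2, 0.43 for Crybb3 and 0.17 for Cryab. With libraries left out, Crybb1 in the retina ranged from -1.16 to 0.31, Crybb3 from -0.20 to 1.43 and Cryab in the RPE from -0.14 to 0.21. The lowest values in the retina were -3.75 for Cryaa, -3.44 for Cryba1, -2.40 for Cryba2 and -3.61 for Crybb2, and in the RPE -7.10 for Cryaa, -7.33 for Cryba1, -5.73 for Cryba4, -5.22 for Crybb1, -7.14 for Crybb2 and -3.59 for Crybb3, and the highest of each of these were those without both WT libraries. The replicate block changed no call of KO against WT. Deviations of retina and RPE libraries with the same number correlated at 0.034 to 0.139 in WT and -0.113 to 0.281 in KO. Correlations between different numbers are not given here, so these values do not decide whether the numbers pair the tissues. The main tests were made without pairing, and the counts with the replicate block are given above. In whole single-cell libraries the KO to WT ratio of Cryab at P19 went from 0.781 to 1.52 without the 5% of cells with the most UMIs, and to 2.46 without the 8 crystallin-rich cells, an alternative added after the data were seen. Without the 5% deepest cells it went from 3.34 to 2.69 at P25 and from 1.91 to 1.31 at P30. With library totals in place of TMM the median log2 change of all genes in KO against WT retina was 0.114, compared with 0.004. Between the WT tissues it was -0.258, compared with 0.003. The cause of these changes was not tested. A gene with a few reads in most libraries, such as Cryaa, cannot be compared at this depth and spread, and single-cell ratios have no replicate.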

Other observations

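In KO retina replicate 2, genes of the cornea were high: Krt5 had 145.7 CPM, Krt14 20.24 and Aldh3a1 37.97. Among the other 7 retina libraries the highest values were 2.45, 0.339 and 0.678 CPM. In Cryaa this library had 2.09 CPM, the highest of KO retina and within the WT range.

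Of the genes most like the 8 crystallins in bulk, several had most of their UMIs in cluster 34, which also held the 4 deep crystallin-rich cells of WT P19. The shares there were 97.7% for Best2, 93.1% for Mfap4, 83.8% for Ogn, 81.5% for Crhbp, 76.6% for Dio3, 76.4% for Notum and 62.3% for Penk. Spocd1, the closest gene in the retina, had 0 of its 11 UMIs in cluster 34. Stac had 38.6% there and its largest share, 40.9%, in cone bipolar cells. Without the 4 cells, cluster 34 had 2 UMIs of Cryaa in WT P19 and 0 in the other libraries, while Cryab there was at 1046 CPM in WT P19, 1142 in KO P19, 954 in WT P25 and 708 in KO P25. Of the genes most like Cryab in the retina, Prdx6 had 67.2%, Itgav 52.8%, Chst2 37.5% and Tnfrsf10b 33.3% of its UMIs in Müller glia. Their highest levels lay elsewhere, in astrocytes for Prdx6 (2397 CPM) and Chst2 (519), RPE cells for Itgav (583) and cluster 34 for Tnfrsf10b (6.95). Siah3 had its largest share, 40.2%, in rod bipolar cells. Of the genes most like Cryab in the RPE, Tyrp1 had 82.9% and Gm40932 52.1% in cluster 34. P4ha3 (90.4%), 1810034E14Rik (33.3%) and Bcap29 (18.4%) had their largest shares in amacrine cells. These lookups were chosen after the bulk lists were seen.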
